A study of Mus musculus with 4 samples.

Results

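The response of wild-type mouse macrophages to 8 h of R848 was read as the difference between 2 arrays, chosen by their titles from the 4 arrays of the series. Both came from male C57BL/6J mice. Bone marrow from the femur was cultured in medium with 10% serum and 3 ng/ml M-CSF, the growth factor that drives macrophage differentiation. Medium was replaced on day 3, and the macrophages were collected on day 5. The untreated array holds total RNA of these cells at 0 h, and the R848 array holds total RNA after 8 h with R848 at 100 ng/ml. The other 2 arrays are the same pair of conditions in Batf2 knockout macrophages and were set beside the results only briefly. No untreated array at 8 h was used, so 8 h of further culture and R848 itself cannot be told apart. The labels do not say how many mice gave the cells of an array. With 1 array per group no test was possible, and every difference below is a value for these 2 arrays.

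R848 (resiquimod) is a small imidazoquinoline that enters endosomes and activates TLR7, the mouse receptor for single-stranded RNA. TLR7 signals through the adaptor MyD88 and the IRAK kinases to NF-kB and the MAP kinases, which drive genes for cytokines, chemokines and feedback inhibitors. Through interferon regulatory factors it can also lead to type I interferon, which acts back on the cells through JAK kinases and STAT factors to raise antiviral genes. Prolonged TLR signalling in macrophages is also known to reshape metabolism, surface receptors and the cell cycle.

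The signal of each array was divided by its 75th percentile and put back on a common scale, so that the ratio of the 2 scaled signals of a probe is its fold difference. A gene was read at its brightest probe, and all measured probes went the same way for 86.2% of the higher and 86.4% of the lower genes that had several. Of 25107 named genes, 18783 had a value, meaning that 1 or both arrays showed a probe well above background. With R848, 1170 genes were at least 2-fold higher, which is 6.23% of the genes with a value, and 1315 were at least 2-fold lower, which is 7%. Together they make up 13.2%. In this text a gene rose or fell only if it passed 2-fold. Increases were the larger in size: 115 genes rose at least 8-fold and 8 at least 100-fold, whereas 33 fell at least 8-fold and 0 at least 100-fold. A signal not well above background was replaced by a floor, so the fold is then a lower bound, written "at least". Such bounds make up 171 of the higher and 249 of the lower genes. Among the 9468 genes whose brighter array was at or above its 75th percentile, 7.54% rose and 6.4% fell.

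Repeated spots give the only measure of error. For 291 probes printed as 10 spots each, the log2 difference varied with a pooled SD of 0.080, far less than a 2-fold difference, but this leaves out the variation between cultures. The share of probes well above background was 69.6% on the untreated and 60.6% on the R848 array, and the percentile used for scaling lay at 278 and 265. The dimmest signal counted as above background was 12.1 and 18.6. Centring the arrays on the median in place of the 75th percentile moved all differences up, so that the median gene stood at 0.13 on the log2 scale instead of -0.03, and 61.1% rather than 47.1% of the differing genes were then higher. All 10 macrophage markers fixed for this work were well above background on both arrays, among them the M-CSF receptor gene Csf1r at 16548 and 18022 and the lineage factor Spi1 at 1310 and 2898.

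**Figure D1:**
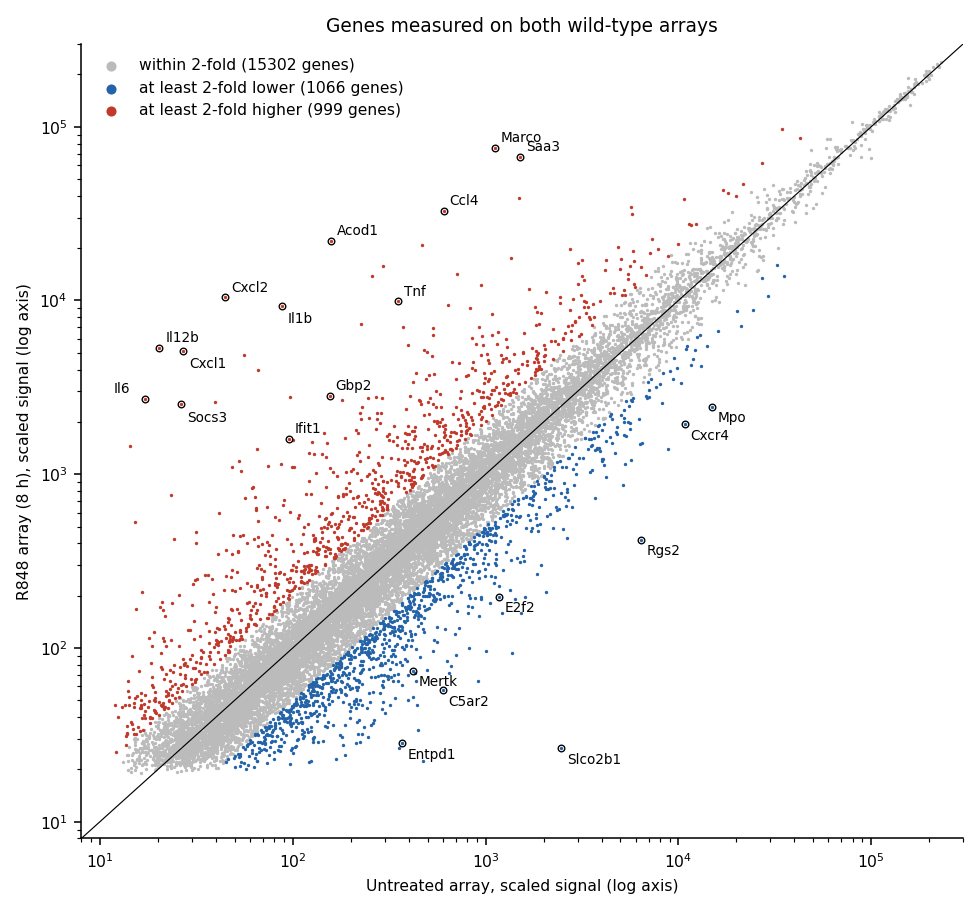
Scaled signal of each gene measured on both wild-type arrays, untreated on the horizontal and R848 on the vertical axis, both logarithmic. Each point is 1 gene, red where at least 2-fold higher (999 genes) and blue where at least 2-fold lower (1066 genes), and the line marks equal signal. The genes farthest above the line include Il12b, Cxcl2 and Acod1, and the farthest below it is Slco2b1.

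The genes were described through 46 lists of pathways and families holding 1039 genes, of which 989 had a value. The listed genes account for 244 of the 1170 increases and 105 of the 1315 decreases, so most differing genes lie outside them. Medians are on the log2 scale and stand beside a median of -0.03 over all genes. Counts of members past 2-fold stand beside 6.23% of all genes higher and 7% lower. For 6 lists, those with medians nearest to 0, the sign of the median depended on the scaling or on how probes were summarised. These are the matrix proteases, complement, respiratory chain, iron and zinc, scavenger receptor and Fc receptor lists.

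**Figure D2:**
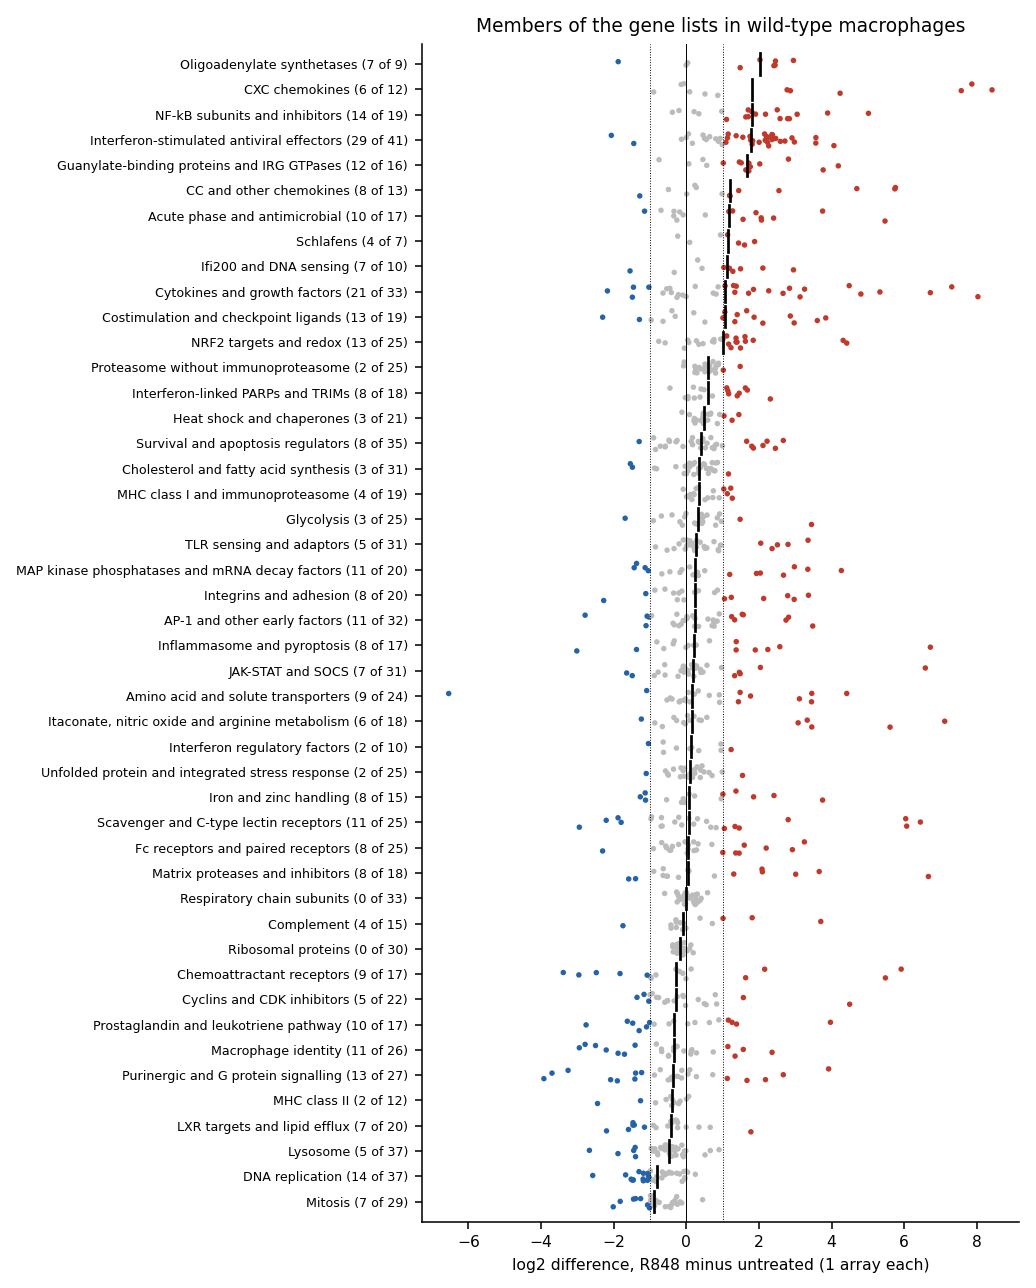
Log2 difference of each list member, R848 minus untreated, with 1 row per list. Points are genes, red or blue where at least 2-fold higher or lower, bounds are drawn at the bound, black bars are list medians, dotted lines mark 2-fold, and the counts give members past 2-fold of members with a value. Oligoadenylate synthetases, CXC chemokines and NF-kB genes have the highest medians, and mitosis and DNA replication the lowest.

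The receptor and its adaptors showed little difference. Of 31 genes of TLR sensing, 5 rose (16.1%, against 6.23% of all genes) and 0 fell (median 0.28). Tlr7 itself read 449.6 untreated and 481 with R848, and its 3 probes lay between -0.38 and 0.10. The adaptor Myd88 stood at 0.52 on the log2 scale. Among the lipopeptide receptors Tlr2 went from 148 to 842, 5.69-fold higher. Its partner Tlr1 went from 271 to 2767, a 10.2-fold rise, at a spot in or near an uneven area of an array, and its other partner Tlr6 from 70.9 to 99.8, within 2-fold. Cd14, a co-receptor that hands ligands to TLRs, rose from 862 to 4434 (5.14-fold). Irak3, a kinase-dead IRAK that restrains the pathway, rose from 407 to 2835 (6.97-fold). Irak2 could not be placed, since its brightest probe was at -0.03 and another of its 3 probes at 1.56.

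Most NF-kB genes rose, among them several that restrain the pathway. Of 19 members 14 (73.7%) were higher and 0 lower (median 1.80). Nfkbiz, a nuclear co-regulator needed for part of the secondary response, read 226 untreated and 7311 with R848, a 32.4-fold rise. The signalling adaptor Traf1 went from 635 to 9435 (14.9-fold). Among the inhibitors, Tnfaip3, which encodes the ubiquitin-editing enzyme A20, rose 8.30-fold from 272 to 2259. Nfkbia, the cytoplasmic inhibitor IkB-alpha, rose 7.16-fold from 849 to 6078, and the A20 partner Tnip1 rose 6.92-fold from 543 to 3754. The subunits differed less, with Nfkb2 at 2.50, Nfkb1 at 1.71 and Rel at 1.11 on the log2 scale, the last at a spot in or near an uneven area. Rela at 0.97 stayed within 2-fold, as did Relb at 0.35, though its 3 probes ran up to 1.68. The inhibitors Nfkbid at 0.22, Tnip2 at -0.20 and Cyld at -0.38 did not pass 2-fold either. For Bcl3, at 2.18, the other probe went down.

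Several early-response factors, which peak soon after stimulation in many cells, were near their starting level at 8 h. On the log2 scale Fos stood at -0.37, Egr1, at a spot in or near an uneven area, at -0.20, Jun at -0.33, Atf3 at 0.01 and Nr4a1 at 0.24. The list as a whole passed 2-fold more often than all genes. Of its 32 factors 7 rose (21.9%, against 6.23% of all genes) and 4 fell (12.5%, against 7%), with a median of 0.23. Those that rose include Batf, an AP-1 family member (11.2-fold from 98.9), Maff from 21.7 to 153 (7.05-fold) and Ets2 from 271 to 1820 (6.71-fold). Batf2, the gene removed in the knockout arm, read 33.3 untreated and 97.0 with R848, 2.91-fold higher at its only probe. Cebpb, which works with NF-kB at cytokine genes, rose 2.52-fold, and its relative Cebpa fell from 9456 to 4637 (2.04-fold). Maf, a transcription factor of differentiated macrophages, rose from 3305 to 9811 at its brightest probe, with a mean over its probes of 0.84 on the log2 scale.

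Feedback genes of the MAP kinases, mRNA decay and cytokine receptors were split. Zc3h12c and Zc3h12a belong to the Regnase family, which cleaves inflammatory mRNAs. Zc3h12c went from 53.8 to 1038 (19.3-fold) and Zc3h12a from 219 to 1723 (7.87-fold). The nuclear phosphatase Dusp2 rose 10.2-fold, Dusp16 6.40-fold and Dusp4 4.11-fold, whereas Dusp1 stood at 0.09 and Zfp36 at 0.33 on the log2 scale. Dusp3, at -1.44, and Zfp36l2, at -1.37, fell. Of 20 members 7 rose and 4 fell. In the JAK-STAT list 5 of 31 rose. Socs3, the inhibitor of signalling through the IL-6 receptor chain gp130, read 26.4 untreated and 2532 with R848, a 95.9-fold rise and the largest of the list. Il6st, which encodes gp130, fell from 1691 to 541 (3.12-fold). Stat2 rose 2.76-fold, and the interferon receptor genes Ifnar1 and Ifnar2 stood at 0.22 and -0.06.

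Secreted signals gave the largest rises. Of 33 cytokines and growth factors with a value 17 (51.5%) rose and 4 fell (median 1.07). Il12b, the p40 subunit of both IL-12 and IL-23, read 20.3 untreated and 5322 with R848, a 262-fold rise. Its partner in IL-12, Il12a, rose 4.82-fold, from 141 to 679. Il6 went from 17.0 to 2704 (159-fold), Il1b from 88.1 to 9303 (106-fold) and Tnf from 352 to 9875 (28.0-fold). Untreated Il12b and Il6 were close to the dimmest signal counted as above background, so their folds rest on a faint starting value. Probes of a gene also differed in size, and the smallest difference on the log2 scale was 3.43 among the 2 of Il6 and 2.44 among the 3 of Il1b. Brakes on inflammation rose too. Il10 went from 52.8 to 1184 (22.4-fold), and Il1rn, the antagonist of the IL-1 receptor, from 434 to 3812 (8.78-fold). Il1a was not well above background untreated and was at least 40.3-fold higher with R848, at 475. Ifnb1, the gene of interferon beta, was well above background with R848 alone, at 20.8, at least 1.77-fold higher and so short of 2-fold. Ifng reached 38.7, at least 3.28-fold higher. The 4 decreases were these: Tnfsf13b, which encodes the B-cell factor BAFF, fell from 96.4 to 21.4 (4.51-fold) and Vegfa from 1199 to 437 (2.74-fold), and Tnfsf14 and Hbegf also fell.

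Chemokines that attract neutrophils gave the largest rises of their class. Cxcl2 read 44.7 untreated and 10413 with R848 (233-fold), and Cxcl1 read 27.0 and 5140 (190.4-fold). Cxcl3 was not well above background untreated and reached 4037, at least 343-fold higher. The interferon-induced Cxcl10 went from 36.2 to 264 (7.29-fold) and Cxcl9 reached 80.7, at least 6.85-fold higher. Of 12 CXC chemokines 6 rose and 0 fell. Among 13 CC and other chemokines 7 rose and 1 fell. Ccl4 went from 606 to 32853 (54.2-fold), Ccl3 from 259 to 13855 (53.6-fold) and Ccl5 from 1494 to 38751 (25.9-fold). These draw monocytes and T cells. The monocyte attractant Ccl2 stood at 0.99 on the log2 scale, just short of 2-fold, and Ccl6 fell from 16136 to 6637.

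Promoter sequence is shown for a pair of these genes because kappaB sites before the start are the best known entry point of NF-kB. The windows are the 250 bases before the start, from RefSeq on build GRCm38.p6, written 5′ to 3′ on the gene's strand, with matches to the kappaB consensus in capitals. Cxcl2 lies on the plus strand at chr5:90903649-90903898 and Il12b on the plus strand at chr11:44399813-44400062.
Cxcl2: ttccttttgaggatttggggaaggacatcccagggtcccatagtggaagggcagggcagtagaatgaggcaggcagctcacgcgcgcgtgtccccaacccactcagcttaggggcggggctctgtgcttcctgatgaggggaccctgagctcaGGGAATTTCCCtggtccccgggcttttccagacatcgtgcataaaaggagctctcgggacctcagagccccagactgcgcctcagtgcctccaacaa
Il12b: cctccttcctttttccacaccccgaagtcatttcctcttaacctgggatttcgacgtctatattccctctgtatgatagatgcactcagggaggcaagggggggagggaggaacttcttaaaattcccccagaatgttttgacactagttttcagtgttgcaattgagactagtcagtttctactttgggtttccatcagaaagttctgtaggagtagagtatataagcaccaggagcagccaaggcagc
Cxcl2 holds 2 overlapping matches between 97 and 87 bases before the start. Il12b holds no match to any of the 5 motifs searched in this window, which says only that those letters are not there. Across all 32851 promoters of the table, 7.25% held the kappaB motif, read on both strands. The share was 8.41% for genes with a value, 11.8% for genes that rose and 8.13% for genes that fell. By list it was 52.4% of 21 promoters for NF-kB genes, 40% of 10 for CXC chemokines and 23.1% of 39 for cytokines. A match is a match of letters, and binding was not measured.

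Receptors for chemoattractants were rearranged rather than moved one way. Of 17 genes 4 rose (23.5%, against 6.23% of all genes) and 5 fell (29.4%, against 7%). The formyl peptide receptors, which sense bacterial peptides, rose. Fpr1 went from 65.7 to 3973 (60.5-fold) and Fpr2 from 468 to 20942 (44.8-fold). Ccr7, the lymph node homing receptor, rose from 48.4 to 216 (4.46-fold). Among the decreases, C5ar2, a receptor for the complement fragment C5a, went from 599.6 to 57.2 (10.5-fold lower), the monocyte receptor Ccr2 from 706 to 90.7 (7.78-fold) and Cxcr4, the receptor that retains cells in bone marrow, from 10784 to 1935 (5.57-fold). Cxcr2, a neutrophil receptor, fell from 396 to 112 (3.54-fold). In bulk RNA, fewer cells of a type and less RNA per cell cannot be told apart, which touches Cxcr2 and Ccr2 first, and markers of other cells are given with the cell-cycle genes.

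Acute phase proteins, matrix enzymes and complement followed. Of 17 acute phase and antimicrobial genes 9 rose and 1 fell (median 1.17). Saa3, the serum amyloid A made by macrophages, read 1514 untreated and 67247 with R848 (44.4-fold). The copper protein ceruloplasmin, Cp, went from 61.6 to 831 (13.5-fold), and the protease inhibitor Slpi from 517 to 2735 (5.30-fold), each at its brightest probe and with another probe within 2-fold, at 0.36 for Cp and 0.63 for Slpi. Lcn2, which binds bacterial siderophores, rose from 27298 to 61461 (2.25-fold). The aggrecan-cleaving protease Adamts4 went from 14.3 to 1456, 102-fold higher, from a faint starting value, and the smallest difference among its 3 probes was 3.32 on the log2 scale. Mmp14 rose 12.6-fold, Mmp13 8.07-fold and Mmp9 4.24-fold, while Mmp19 fell 3.00-fold and the inhibitor Timp2 2.63-fold. In the complement list 3 of 15 rose (20%, against 6.23% of all genes) and 1 fell (6.67%, against 7%). Factor B, Cfb, of the alternative pathway went from 533 to 6952 (3.70 on the log2 scale).

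Interferon-stimulated genes rose as a broad set with moderate folds. Across the 7 interferon lists, 64 of 111 genes with a value rose (57.7%) and 5 fell (4.50%). Antiviral effectors contributed 27 of 41, with a median of 1.77. Ifit1, which binds RNA that lacks host cap marks, read 95.6 untreated and 1601 with R848 (16.7-fold). Isg15, a ubiquitin-like modifier, went from 535 to 6352 (11.9-fold), and the dynamin-like GTPase Mx1 from 145 to 1723 (11.9-fold). Cytosolic RNA sensors rose as well, with Ddx58, which encodes RIG-I, at 4.46-fold and Ifih1, which encodes MDA5, at 3.37-fold. The 2 members that fell were Ifi30, a lysosomal thiol reductase, from 4746 to 1741, and Ifitm6, from 208 to 49.7.

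The smaller families moved in the same direction. Oligoadenylate synthetases sense double-stranded RNA, and 6 of 9 genes of that list rose (median 2.03), led by Oasl1 from 131 to 1016 (7.73-fold). Guanylate-binding proteins and IRG GTPases, which attack the vacuoles of intracellular pathogens, rose in 12 of 16 cases (median 1.67). Gbp2 went from 156 to 2837 (18.2-fold) and Gbp3, from 62.2 untreated, rose 13.6-fold. Of the Ifi200 and DNA-sensing genes 6 of 10 rose, with Ifi205 from 1077 to 8331 (7.74-fold), and Sting1, the adaptor of cytosolic DNA sensing, fell from 2929 to 1000 (2.93-fold). Schlafens rose in 4 of 7 cases, up to 3.68-fold for Slfn1. Interferon-linked PARPs and TRIMs rose in 8 of 18, up to 4.98-fold for Parp14. Many of these families hold near-identical genes, which array probes may not tell apart. Some members counted as within 2-fold at the brightest probe had another probe past it, so the counts depend on the probe read. On the log2 scale these include Gbp5 (0.46 and 1.62), Iigp1 (0.07 and 1.74), Oas1b (0.04 and 1.30) and Parp9 (0.20 and 1.69).

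Of 10 interferon regulatory factors 1 rose (10%, against 6.23% of all genes) and 1 fell (10%, against 7%), with a median of 0.12. Irf7, which amplifies the type I interferon response, rose from 2375 to 5586 (2.35-fold), at a spot in or near an uneven area. Irf1 at 0.96 and Irf9 at 0.95 were just short of 2-fold. Irf8, a myeloid lineage factor, fell from 1303 to 632 (2.06-fold).

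The interferon-stimulated response element (ISRE) is the motif that IRFs and the STAT complex with IRF9 bind, and 3 promoters are shown for it. Matches to the ISRE consensus on either strand are in capitals, and for Cxcl10 also matches to kappaB. Isg15 lies on the minus strand at chr4:156200819-156201068, Ifit1 on the plus strand at chr19:34640639-34640888 and Cxcl10 on the minus strand at chr5:92348890-92349139, all on GRCm38.p6 from RefSeq.
Isg15: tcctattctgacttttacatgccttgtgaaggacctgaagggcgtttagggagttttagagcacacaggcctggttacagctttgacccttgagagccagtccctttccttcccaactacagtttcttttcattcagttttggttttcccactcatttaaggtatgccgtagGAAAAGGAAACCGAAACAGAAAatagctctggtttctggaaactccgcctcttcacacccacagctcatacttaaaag
Ifit1: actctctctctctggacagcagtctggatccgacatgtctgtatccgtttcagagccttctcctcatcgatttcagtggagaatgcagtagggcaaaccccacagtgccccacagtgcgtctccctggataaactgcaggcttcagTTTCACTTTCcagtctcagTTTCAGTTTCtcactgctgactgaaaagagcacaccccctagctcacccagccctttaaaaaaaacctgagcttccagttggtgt
Cxcl10: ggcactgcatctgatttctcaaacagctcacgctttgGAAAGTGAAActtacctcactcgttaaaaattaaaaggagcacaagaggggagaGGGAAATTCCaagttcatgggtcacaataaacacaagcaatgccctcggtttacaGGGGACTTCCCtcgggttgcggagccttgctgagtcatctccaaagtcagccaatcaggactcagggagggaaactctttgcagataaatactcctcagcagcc
Isg15 holds 3 overlapping ISRE matches between 78 and 57 bases before its start. Ifit1 holds 2 separate ones, at 104 to 95 and 85 to 76 bases. Cxcl10 holds 1 ISRE at 213 to 204 bases and 3 kappaB matches, of which 2 overlap, at 159 to 150 and 104 to 94 bases. The ISRE was found in 2.98% of all promoters, in 2.75% of those of genes with a value, in 6.14% of those of genes that rose and in 3.33% of those of genes that fell. Among the GBP and IRG GTPases it was in 83.3% of 12 promoters, among oligoadenylate synthetases in 66.7% of 6, among Schlafens in 50% of 8 and among antiviral effectors in 23.8% of 42. Within the interferon lists, among members with a promoter in the table, 24 of 33 genes with an ISRE rose and 0 fell (median 1.60), and 26 of 51 genes without one rose and 3 fell (median 1.09). Over all genes with a value and a promoter, 14.6% of 452 with the motif rose, against 6.18% of 13455 without it.

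**Figure D3:**
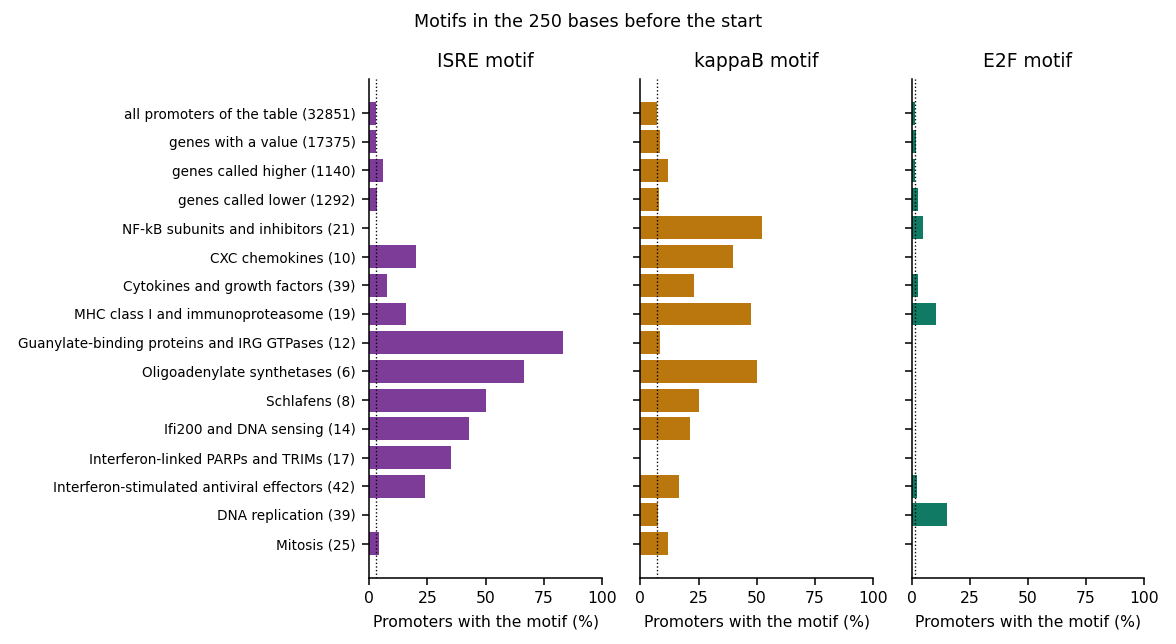
Percentage of promoters that hold each motif within 250 bases before the start, for all promoters, for genes by their response and for selected lists, with the number of promoters in brackets. The dotted line is the share over all promoters. ISRE bars are longest for the GBP and IRG GTPases (83.3%), kappaB bars for NF-kB genes (52.4%) and E2F bars for DNA replication (15.4%).

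**Figure D4:**
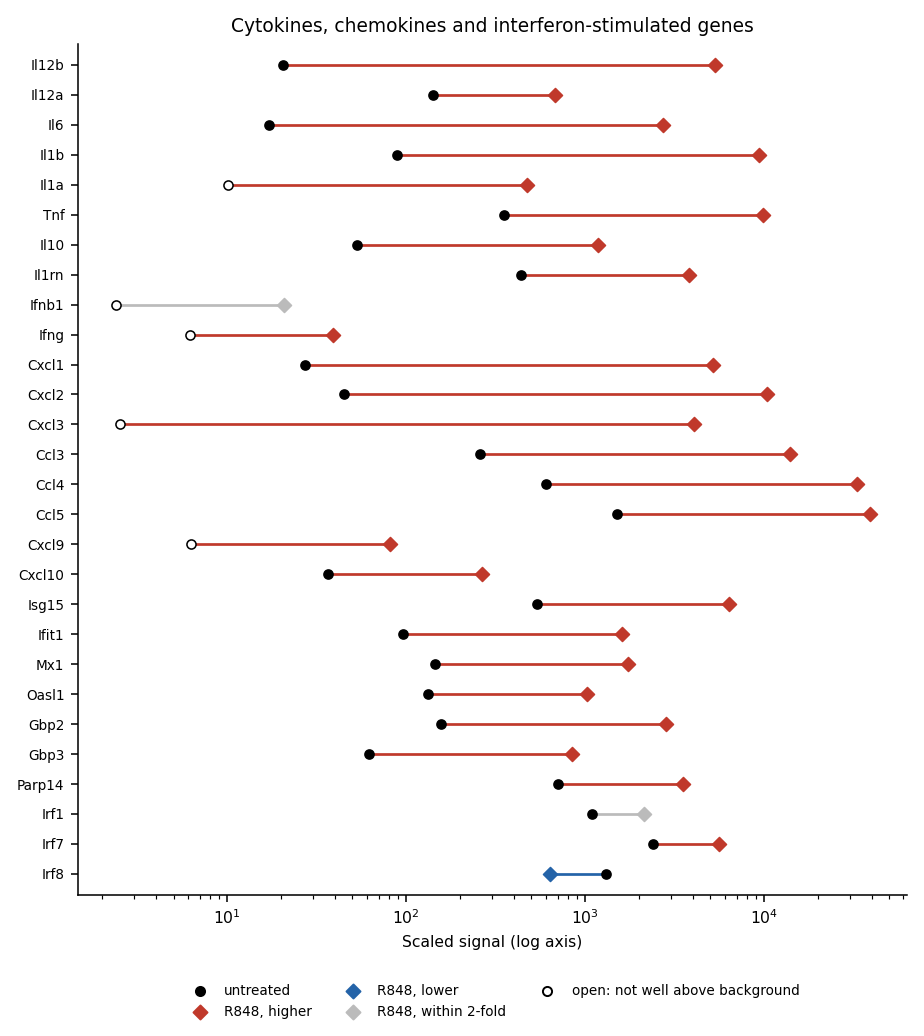
Scaled signal of cytokines, chemokines and interferon-related genes on the untreated (circles) and R848 (diamonds) arrays, on a log axis. Open symbols are not well above background, and lines are red for at least 2-fold higher, blue for lower and grey for less than 2-fold. Il12b, Il6, Cxcl1 and Cxcl2 span the widest measured ranges, and Irf8 is the gene that fell.

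Most MHC genes of both classes stayed within 2-fold, 15 of 19 in the class I list and 10 of 12 in the class II list. Of 19 MHC class I and immunoproteasome genes 4 rose and 0 fell (median 0.34): H2-T22 went from 2775 to 6681 (2.41-fold), the immunoproteasome subunit Psmb10 from 1256 to 2935 (2.34-fold), the class I transactivator Nlrc5 rose 2.19-fold and the peptide transporter Tap1 2.05-fold. The classical heavy chains H2-K1 and H2-D1 stood at 0.34 and -0.09 on the log2 scale. Of 12 class II genes 0 rose and 2 fell (16.7%, against 7% of all genes), with a median of -0.39. The fallers, H2-DMb2 from 353 to 64.8 and H2-DMa from 371 to 155, encode the chaperone that loads peptides. The class II genes H2-Eb1 at -0.21, H2-Ab1 at 0.07 and Cd74 at 0.004 on the log2 scale stayed within 2-fold. So did H2-Aa at -0.43, at a spot in or near an uneven area. Costimulation and checkpoint genes rose in 11 of 19 cases (median 1.06). Cd40, which receives T-cell help, went from 41.5 to 594 (14.3-fold), and Cd274, the ligand PD-L1, from 510.1 to 3716 (7.28-fold). Cd86 at -0.31 stayed within 2-fold, and the checkpoint receptor Havcr2 (TIM-3) fell from 941 to 191 (4.94-fold).

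In metabolism the itaconate gene Acod1 gave the largest rise. Of 18 itaconate, nitric oxide and arginine genes 5 rose (27.8%, against 6.23% of all genes) and 1 fell (5.56%, against 7%), with a median of 0.15. Acod1, which makes itaconate from cis-aconitate, read 158 untreated and 21926 with R848 (139-fold). The arginine importer Slc7a2 went from 121 to 1333 (11.0-fold) and the arginine-recycling enzyme Ass1 from 150.0 to 1509 (10.1-fold). The nitric oxide synthase gene Nos2 read 426 and 405, and Arg1 stood at 0.41, so neither arginine-consuming enzyme passed 2-fold. Of 25 NRF2 targets and redox genes 13 rose and 0 fell (median 1.01). Slc7a11, the cystine importer for glutathione synthesis, went from 65.4 to 1400 (21.4-fold) and mitochondrial Sod2 from 707 to 14116 (20.0-fold). Txnrd1 rose 3.59-fold, Nqo1 3.06-fold, Gclm 2.58-fold and Hmox1, which missed 2-fold under 3 alternatives, 2.01-fold, so the classical targets clustered at modest folds.

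Few glycolysis genes passed 2-fold, at shares near those of all genes. Of 25 glycolysis genes 2 rose (8%, against 6.23% of all genes) and 1 fell (4%, against 7%), with a median of 0.33. The genes past 2-fold are all glucose transporters. Slc2a6 went from 101 to 1103 (10.9-fold), Slc2a1 from 1137 to 3178 (2.79-fold) and Slc2a3 fell from 825 to 257 (3.22-fold). No respiratory chain subunit of 33 passed 2-fold, against 13.2% of all genes, and the whole list lay between -0.60 and 0.58. Ribosomal proteins likewise had 0 of 30 past 2-fold, between -0.37 and 0.19. The core proteasome had a median of 0.61, and 2 of 25 rose (8%, against 6.23% of all genes). Of its 25 genes 23 lay above 0, against 47.3% of all genes. Chaperones showed a similar small shift, with 20 of 21 above 0 and 3 higher (14.3%).

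The list of LXR targets and related lipid genes leaned lower, and other lipid and eicosanoid genes moved both ways. LXR is a sterol receptor. Of 20 members 6 fell (30%, against 7% of all genes) and 1 rose (5%, against 6.23%), with a median of -0.41. Among LXR targets the cholesterol exporter Abcg1 fell from 6241 to 2068 (3.02-fold). Abca1 at -0.91, Apoe at -0.40 and Pltp at -0.005 on the log2 scale stayed within 2-fold. Among the related lipid genes the fatty acid carrier Fabp4 fell from 5281 to 1151 (4.59-fold) and Gpnmb from 24429 to 8824 (2.77-fold). The receptor gene Nr1h3, LXR-alpha, was the riser, from 3122 to 10712 (3.43-fold). Cholesterol and fatty acid synthesis had 1 of 31 higher (3.23%) and 2 lower (6.45%), with a median of 0.34. Of these 31 genes 24 lay above 0, against 47.3% of all genes. In the prostaglandin and leukotriene pathway 4 of 17 rose (23.5%, against 6.23% of all genes) and 6 fell (35.3%, against 7%). Ptges, a prostaglandin E synthase gene counted as within 2-fold, could not be placed. Its brightest probe was at 0.04 on the log2 scale and another of its 3 probes at 4.22. Inducible cyclooxygenase Ptgs2 went from 100.1 to 1569 (15.7-fold) while its constitutive relative Ptgs1 fell from 207 to 67.1 (3.08-fold). Hpgd, which degrades prostaglandins, read 129 untreated and was not well above background with R848, at least 6.78-fold lower. The enzyme that makes prostaglandins on demand and the one that removes them thus lay on opposite sides.

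Transporters and metal handling moved both ways. Of 24 amino acid and solute carriers 7 rose and 2 fell. The organic anion carrier Slco3a1 went from 186 to 1611 (8.67-fold). Its relative Slco2b1 had the largest decrease of all genes, from 2473 to 26.5 (93.4-fold), but only at its brightest probe, since the other of its 2 probes stood at -0.62 on the log2 scale. In the iron and zinc list 5 of 15 rose and 3 fell. The zinc and iron importer Slc39a14 rose from 38.3 to 204 (5.33-fold) and the divalent metal transporter Slc11a2 from 393 to 1420 (3.61-fold). Slc40a1, the iron exporter ferroportin, fell from 6763 to 2810 (2.41-fold).

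Genes that define macrophages divided, with more lower than higher. Of 26 macrophage identity genes 4 rose and 7 fell (median -0.35). Adgre1, a classical surface marker of mouse macrophages, went from 17124 to 43442 (2.54-fold higher), and Csf1r stood at 0.12 on the log2 scale. Mertk, which takes up apoptotic cells, fell from 418 to 73.9 (5.66-fold) and Gas6, a ligand of that receptor, from 1818 to 558 (3.26-fold). The mannose receptor Mrc1 fell from 301 to 81.7 (3.68-fold) and the lectin Clec10a from 1558 to 337 (4.62-fold). Cd163, the haemoglobin scavenger receptor, read 154 untreated and was not well above background with R848, at least 7.71-fold lower.

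Other surface receptors moved both ways. In the scavenger and C-type lectin list 7 of 25 rose and 4 fell. Marco, a scavenger receptor for bacteria, read 1122 untreated and 75397 with R848 (67.2-fold). Clec4e, the glycolipid receptor Mincle, went from 39.3 to 2593 (66.0-fold) and the receptor Tarm1 from 55.9 to 4882 (87.3-fold). These sat far above the rest of the list, since the next largest log2 difference was 2.81, for Clec4a1. Among 25 Fc and paired receptors 7 rose and 1 fell, with the inhibitory receptor Pilra from 290.0 to 2763 (9.53-fold) and the neonatal Fc receptor Fcgrt down from 293 to 59.2 (4.94-fold). Integrins and adhesion genes rose in 6 of 20 cases (30%, against 6.23% of all genes) and fell in 2 (10%, against 7%). Itga5, of the fibronectin receptor, went from 157 to 1086 (6.93-fold) and Itgal, of LFA-1, from 3179 to 13921 (4.38-fold), while Itgb5 fell from 952 to 197 (4.84-fold).

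Lysosomal and G protein genes leaned lower. Of 37 lysosomal genes 5 fell and 0 rose (median -0.47), and 34 of 37 lay below 0, against 52.7% of all genes. Atp6v0d2, a subunit of the proton pump, had the largest decrease of the list, from 8831 to 1388 (6.36-fold). The main cathepsins Ctsb and Ctsd stood at -0.36 and -0.55 on the log2 scale. In purinergic and G protein signalling 5 of 27 rose and 8 fell. Rgs2, which shortens Gq signals, went from 6362 to 419.5 (15.2-fold lower). Entpd1, the ectonucleotidase CD39 that removes extracellular ATP, went from 366 to 28.2 at the brightest of 3 probes, -3.70 on the log2 scale. The adenosine receptors Adora2b, from 20.7 to 94.1 (4.53-fold), and Adora2a (2.19-fold) rose, as did Gpr84, a receptor for medium-chain fatty acids, from 74.1 to 1121 (15.1-fold).

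Cell death genes rose more often than they fell. Of 17 inflammasome genes 6 rose (35.3%, against 6.23% of all genes) and 2 fell (11.8%, against 7%). Nlrp3 went from 451 to 2687 (5.96-fold), Casp4, the sensor of cytosolic lipopolysaccharide, from 536 to 2540 (4.74-fold) and Casp1 from 2042 to 5287 (2.59-fold). Nlrp1b, another inflammasome sensor, fell from 420.1 to 51.9 (8.09-fold), and the pore-forming Gsdmd stood at 0.27. Of 35 survival and apoptosis regulators 7 rose (20%) and 1 fell (2.86%). Those that rose include the inhibitors of cell death Bcl2a1d, from 5732 to 31401 (5.48-fold), Cflar, from 1283 to 5998 (4.67-fold, with the lowest of its 5 probes at 0.55 on the log2 scale), and Birc3 (3.49-fold). The death receptor Fas was higher at its brightest probe (2.67), with its 3 probes between -1.16 and 3.51.

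Proliferation genes were lower across both cell-cycle lists. Of 37 DNA replication genes 14 (37.8%, against 7% of all genes) fell and 0 rose (median -0.80), with 35 of 37 below 0. Of 29 mitosis genes 7 (24.1%) fell and 0 rose (median -0.88), with 28 of 29 below 0. E2f2, an activator of S-phase genes, read 1176 untreated and 197 with R848 (5.97-fold lower). The ribonucleotide reductase subunit Rrm2 fell from 1044 to 364 (2.87-fold) and Mcm7, of the replicative helicase, from 4805 to 1708 (2.81-fold). The MCM2 to MCM6 subunits of that helicase stayed within 2-fold, among them Mcm5 at -0.59 and Mcm6 at -0.99, while its partners Gins1 at -1.46 and Cdc45 at -1.18 fell. In mitosis, Cenpa, the centromeric histone, fell from 283 to 80.0 (3.53-fold) and the spindle motor Kif11 from 449 to 171 (2.63-fold). Cdk1 read 77.2 untreated and was not well above background with R848, at least 4.04-fold lower. The proliferation marker Mki67 stood at -0.88, just inside 2-fold. Among CDK inhibitors Cdkn2b (p15) rose from 48.3 to 1093 (22.6-fold). Of 22 cyclin and inhibitor genes 2 rose (9.09%, against 6.23% of all genes) and 3 fell (13.6%, against 7%). Many members lie close to the 2-fold line, so these counts move with the processing: between 4 and 15 replication genes and between 3 and 11 mitosis genes fell over the alternatives tried, while 0 rose in any.

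Replication genes are classical targets of E2F, and the promoter of Mcm5 is shown as an example with its match to the E2F motif (TTTCCCGC or TTTGGCGC, either strand) in capitals. It lies on the plus strand at chr8:75109259-75109508 of GRCm38.p6 and comes from RefSeq.
Mcm5: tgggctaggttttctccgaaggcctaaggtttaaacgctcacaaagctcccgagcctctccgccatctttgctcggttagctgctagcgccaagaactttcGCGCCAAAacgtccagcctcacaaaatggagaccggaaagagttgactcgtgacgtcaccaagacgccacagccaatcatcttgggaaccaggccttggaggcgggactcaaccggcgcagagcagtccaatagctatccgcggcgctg
The match lies 149 to 142 bases before the start, on the opposite strand. Among 39 promoters of DNA replication genes 15.4% held the motif, against 1.30% of all promoters, and 0 of 25 promoters of mitosis genes held it.

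Markers of other cells that bone marrow cultures can hold also differed between the arrays. Of 15 markers of neutrophils and their precursors with a value, 9 fell and 0 rose (median -1.36), and all were well above background on both arrays. Their summed signal was 167380 untreated and 128710 with R848. The granule enzymes of early precursors were among them: Mpo went from 14889 to 2449 (6.08-fold), Elane from 2166 to 594 (3.65-fold) and Ctsg from 5220 to 1690 (3.09-fold). The precursor genes Ms4a3 (3.57-fold) and Gfi1 (3.58-fold) fell too. The calprotectin genes S100a8 and S100a9 stood at -0.09 and -0.18 on the log2 scale. Of 10 mast cell and basophil markers 4 fell (40%, against 7% of all genes) and 1 rose (10%, against 6.23%). Their summed signal was 6345 and 3780. Of 8 B-cell markers 3 fell (37.5%) and 0 rose, with a summed signal of 2092 and 1661. Precursor markers thus moved in the same direction as the cell-cycle genes, and their part in those decreases and in that of Cxcr2 was not tested.

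**Figure D5:**
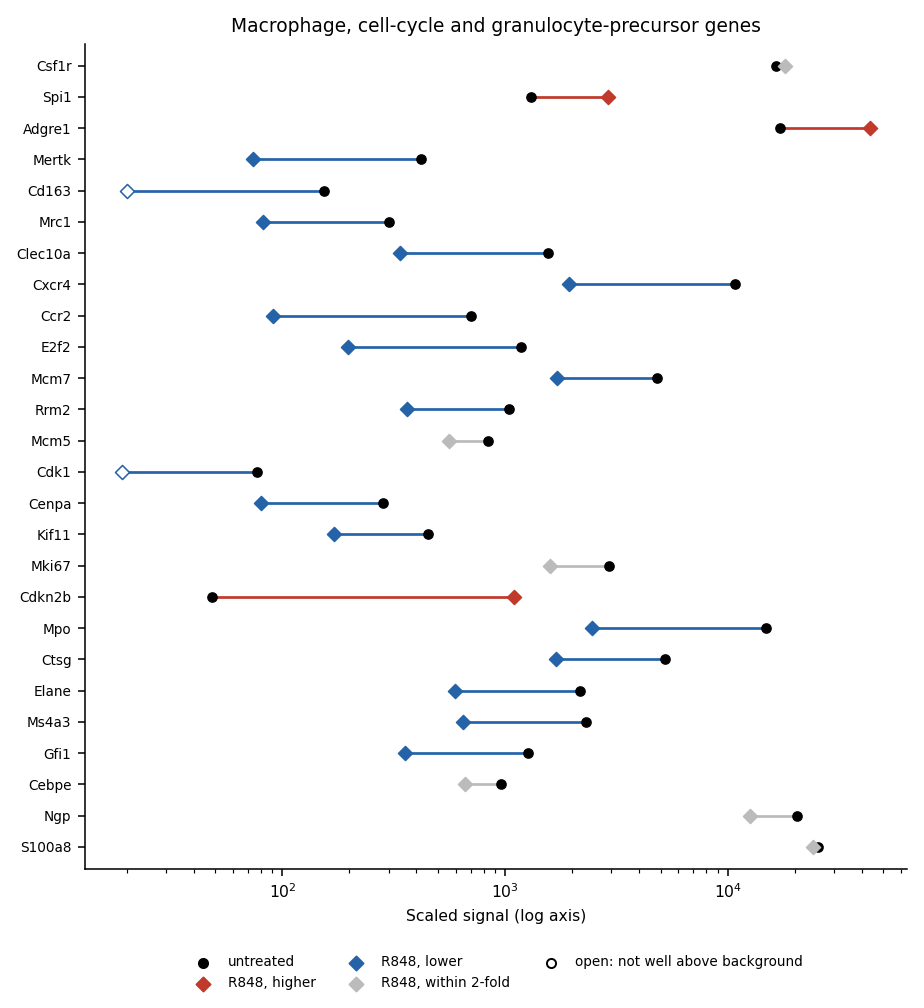
Scaled signal of macrophage, cell-cycle and granulocyte-precursor genes on the untreated (circles) and R848 (diamonds) arrays, on a log axis. Open symbols are not well above background, and lines are blue for at least 2-fold lower, red for higher and grey for less than 2-fold. Mertk and Cd163 fell while Spi1 and Adgre1 rose, and Mpo, Ctsg and Elane fell while S100a8 stood at -0.09 on the log2 scale.

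Several of the largest differences lay outside the lists. Slc13a3, a carrier of dicarboxylates, read 294 untreated and 15701 with R848 (53.5-fold). Shisa3 was not well above background untreated and reached 1104, at least 93.8-fold higher, and Lad1, which encodes an anchoring filament protein, reached 936, at least 79.5-fold higher. On the lower side Tmem37 went from 1372 to 93.1 (14.7-fold), Rnf150 from 912 to 64.7 (14.1-fold), Slc26a11 from 1006 to 95.4 (10.5-fold) and the ubiquitin ligase Rnf144b from 2056 to 209 (9.82-fold). The phosphodiesterase Pde3b fell 8.38-fold and the sialyltransferase St6gal1 8.19-fold at their brightest probes, with the smallest change among their probes at -1.19 and -0.69.

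Among these was Mir155hg, the host transcript of miR-155, a microRNA that TLR signalling is known to induce. Its probe was not well above background untreated and reached 309 with R848, at least 26.3-fold higher. The mature microRNAs cut from this transcript were not measured here. They are shown because they are its product, from RefSeq on GRCm38.p6 at chr16:84714143-84714165 and chr16:84714182-84714202 on the plus strand, with the seed (bases 2 to 8) in capitals.
miR-155-5p: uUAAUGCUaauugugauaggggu
miR-155-3p: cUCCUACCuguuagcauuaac

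The pair of Batf2 knockout arrays, which shares no array with the wild-type pair, gave 6.51% of 18482 genes higher and 6.42% lower. Of the wild-type increases that had a value there, 772 of 1095 (70.5%) were also at least 2-fold higher in the knockout pair, which is 64.2% of the knockout increases. Of the wild-type decreases 656 of 1259 (52.1%) were also lower, which is 55.3% of the knockout decreases. Over all genes 4 wild-type increases and 8 wild-type decreases passed 2-fold in the opposite direction in the knockout pair, none of them a list member. Side by side, the median of antiviral effectors was 1.77 in wild type and 2.33 in knockout, of GBP and IRG GTPases 1.67 and 2.40, of NF-kB genes 1.80 and 1.93 and of mitosis genes -0.88 and -1.10. With 1 array per group the difference between genotypes was not tested.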

How the data were processed

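Total RNA was labelled with Cy3 and hybridised to 1-colour Agilent arrays, 4 on 1 slide and read in 1 scan. Per the file headers, the authors read spot intensities with Agilent Feature Extraction, version 11.5.1.1, on a probe grid annotated to mm9. The processed signal is an intensity after background and spatial trend correction, per the file headers. The table the authors deposited holds intensities that were 1 factor per array times the processed signal within 1% for 100% of spots, beside log2 ratios of the authors that were not used. The origin of these factors was not given in the sources used here.

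Signals were moved to log2, less the 75th percentile of the array over 56605 non-control probes. Outlier spots (83 untreated, 115 R848) were left out, no spot was saturated, and spots of a probe were averaged. A probe entered when well above background on at least 1 array. Where the other was not, its value became the higher of its own and that array's lowest value above background, and the fold is a bound; bounds with the wrong sign gave no value. Each gene took its brightest probe. Scaled signal is 2 to the power of that value plus the mean log2 percentile of both arrays. Spots were marked as lying in or near an uneven area by the median deviation in windows of 7 by 7 (over 0.5 log2) or 3 by 3 spots (over 1.5 log2), widened by 3 spots. Of 56605 probes 40458 were named, 28867 through an Entrez ID, with symbols from GRCm38.p6 used for names alone. Promoters and microRNAs came from RefSeq tables of that build.

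A call is a difference of at least 2-fold. Precision is limited by having 1 array per group. Genes named are list members, chosen by size or role, the 15 largest differences per direction measured on both arrays and up to 10 largest bounds per direction, with probes in 1 direction, a brighter array at or above its 75th percentile and no marked area, and Batf2. For lists, up to 8 members of largest size and those whose role is described were eligible. Some genes that the rule would name are not reported here, though they are in the counts. Members and lists were chosen with earlier results of these data known. Python 3.11.15, pandas 2.3.3, R 4.3.3 and limma 3.58.1 were used.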

Additional observations from a re-analysis of the deposited data

Results flagged for a closer look

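Batf2 was 1.54 on the log2 scale in the wild-type pair and -0.82 in the knockout pair. The knockout value is a bound, since Batf2 was not well above background there with R848, and it is short of 2-fold. The 2 values differ in sign, but only the wild-type value passed 2-fold, and under normexp it did not (0.72). The difference was not tested, and the position of the probe relative to the deletion was not given in the sources used here.

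Of 7434 probes with a value but no gene name, which entered no comparison, 366 (4.92%) were at least 2-fold higher with R848 than on the untreated array, against 6.23% of genes, and 492 (6.62%) were at least 2-fold lower, against 7% of genes.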

How the results depend on the processing

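The counts of 1170 higher and 1315 lower genes stayed within 1.5 times under centring on the median (1521 and 970), another set of probes for the percentile (1057 and 1496), quantile normalization (1285 and 1223), probes well above background on both arrays (999 and 1067), the mean over probes (1115 and 1213), outlier spots kept (1170 and 1316), marked areas left out (1053 and 1205) and the table the authors deposited (1038 and 1210). They were 705 and 576 under normexp with an offset of 50, which shrinks differences between dim signals by construction, and with no filter and no bounds 2266 genes were lower. Normexp was run on the median spot signal, chosen after seeing the data; the planned mean signal is not a column of the files and that version was not run. The sign of no named gene past 2-fold was reversed under any of the 10 alternatives. Of all 2485 calls 51.1% were kept under normexp, the fewest under any alternative. Of 176 named genes past 2-fold, 172 stayed so under median centring, 173 under quantile normalization, 166 under normexp (lost: Adora2b, Batf2, Cdc45, Cdk1, Eif2ak3, Gins1, Hbegf, Ifng, Tap1 and Tnfsf13b) and 171 with the mean over probes (lost: Bcl3, Cdc45, Irf8, Maf and Nlrc5). In the authors' deposited table Slco2b1 stood at -0.64. No paired analysis was possible because each group has 1 array. Depth here means signal over background, and the folds of genes near the dimmest signal above background, such as Il6 and Il12b, are the least certain.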

Other observations

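Stress pathways outside the report's themes differed little. Of 25 genes of the unfolded protein and integrated stress responses 1 rose and 1 fell (median 0.10). Each is 4% of the list, against 6.23% of all genes higher and 7% lower. The riser was Asns, asparagine synthetase, from 498 to 1457 (2.92-fold), and the faller Eif2ak3, the endoplasmic reticulum kinase PERK, from 113 to 52.5 (2.15-fold).

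Markers of other lineages form short lists of 8 to 10 genes with a value. Dendritic cell markers rose in 2 of 10 cases (20%, against 6.23% of all genes). Fibroblast and endothelial markers rose in 3 of 10 (30%). Erythroid and megakaryocyte markers fell in 1 of 9 (11.1%, against 7% of all genes). T and NK cell markers rose in 1 of 8 cases (12.5%), and that gene was Cd8a, from 21.1 to 183 (8.68-fold). The T-cell receptor genes Cd3e and Cd3d stood at 0.27 and -0.25 on the log2 scale.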
